A study of Homo sapiens with 12 samples.

Results

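The genes described here are 50 mitosis genes, which were the rows of the raw count table with the symbol of a member of a fixed list, out of 28395 genes in the table. Each of the 50 symbols was found once, and all 50 genes passed the filter on low counts that kept 15853 genes for testing. They were measured by RNA-seq in 4 stable lines of HCT116, a human colorectal cancer cell line, each with 3 libraries (12 in total). EV cells (labelled pcDNA) were transfected with the empty pcDNA3.1 vector and EHF cells with the same vector carrying EHF, an epithelial transcription factor of the ETS family, and geneticin (G418)-resistant clones of each were taken. CDX1 cells (labelled CDX) were transduced with a retrovirus that carries CDX1, an intestinal homeobox transcription factor, together with GFP, and were sorted as a GFP-positive pool. EHF+CDX1 cells (labelled EHF-CDX1) were geneticin-resistant clones of CDX1 cells transfected with EHF. The medium of all lines was DMEM-F12 plus 10% FCS, and the labels record no other treatment. CDX1 cells therefore differed from EV cells in vector, delivery and selection as well as in CDX1, and these cannot be told apart. A line selected as resistant clones may also carry features of those clones. The labels do not say whether the libraries of a line came from separate cultures, so the p-values measure only the spread between these libraries.

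Mitosis is driven by CDK1 bound to cyclin B, which is switched on at the end of G2 phase by CDC25 phosphatases and held back by the kinases WEE1 and PKMYT1. The chromosomes are then attached through kinetochores to a spindle built by motor proteins and by the kinases AURKA and PLK1, while a checkpoint of BUB and MAD proteins holds back the anaphase-promoting complex until each chromosome is attached. That complex, with CDC20 and the ubiquitin-conjugating enzyme UBE2C, then marks cyclin B and securin (PTTG1) for destruction, which frees separase (ESPL1) to part the sister chromatids before the central spindle and the contractile ring divide the cell. Transcripts of most of these genes are controlled over the cell cycle by B-MYB (MYBL2), FOXM1 and the DREAM complex and rise in late S and G2 phase. Many of the promoters hold CCAAT boxes and an element called CHR near the transcription start. The level of these transcripts in a bulk culture therefore follows the share of dividing cells. In these bulk libraries fewer dividing cells and less RNA per dividing cell cannot be told apart.

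The 2 labelled factors were found where the labels place them. EHF was at 299 ± 54.4 CPM (TMM-normalized counts, scaled to the size of the library; mean ± SD, n = 3) in EV cells, 19312 ± 305 in EHF cells, 12.3 ± 0.603 in CDX1 cells and 18708 ± 1433 in EHF+CDX1 cells. CDX1 was at 525 ± 35.8 CPM in CDX1 cells and 5419 ± 277 CPM in EHF+CDX1 cells, and the other lines had at most 4 reads of it per library, so the level of CDX1 also differed between the lines that carry it. The level of EHF was lower in CDX1 than in EV cells, so these lines differed in both factors. The libraries held between 13523007 and 74186741 counts each. The 8 epithelial markers checked, such as EPCAM and KRT8, were at or above 1 CPM in every library, with a summed level of 2934 to 3546 CPM in CDX1 libraries and 4553 to 5686 CPM in the others. Of the 6 fibroblast, 5 blood and 4 endothelial markers, 3, 4 and 3 were below 1 CPM in every library. The summed level of the fibroblast markers was nevertheless 168 to 220 CPM in CDX1 libraries against 34.5 to 76.7 CPM in the others, and that of the blood markers 77.2 to 88.6 CPM against 2.18 to 26.7 CPM. Only 1 of the 6 fibroblast and 1 of the 5 blood markers, the latter CD68, was at or above 1 CPM in every library. In CDX1 libraries the blood sum thus rested mainly on CD68.

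EV replicate 3 stood apart from the other 2 libraries of its line. Its 10 most abundant genes took 18.3% of its counts, against 8.19% and 8.39% in replicates 1 and 2. Its counts differed from those of replicates 1 and 2 by a chi-square per degree of freedom of 317 and 288, while replicates 1 and 2 differed by 4.06 and the libraries of the other lines by 3.19 to 46.1. All 50 mitosis genes were lower in replicate 3 than in replicates 1 and 2, against 41.4% of all genes tested, and 44 of them were more than 2-fold below each, against 5.13%. The mean of replicates 1 and 2 was between 1.24 and 6.11 times the level in replicate 3 (median over the genes 3.42, against 0.951 over all genes tested), whereas replicates 1 and 2 differed from each other by at most 1.19-fold in any of the 50 genes. The genes with the widest gap were BIRC5, a subunit of the chromosomal passenger complex (6.11 times), CCNA2, cyclin A (5.79 times), and DLGAP5, which stabilizes spindle microtubules (5.76 times). The gap was narrowest in CDC25B (1.24 times). In replicate 3, 31 of the 50 genes were at the lowest level of all 12 libraries and below each CDX1 library, 8 lay among the CDX1 libraries and 11 lay above them. The counts of genes called against EV cells are therefore given with and without this library. These comparisons share the same 3 control libraries.

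**Figure D1:**
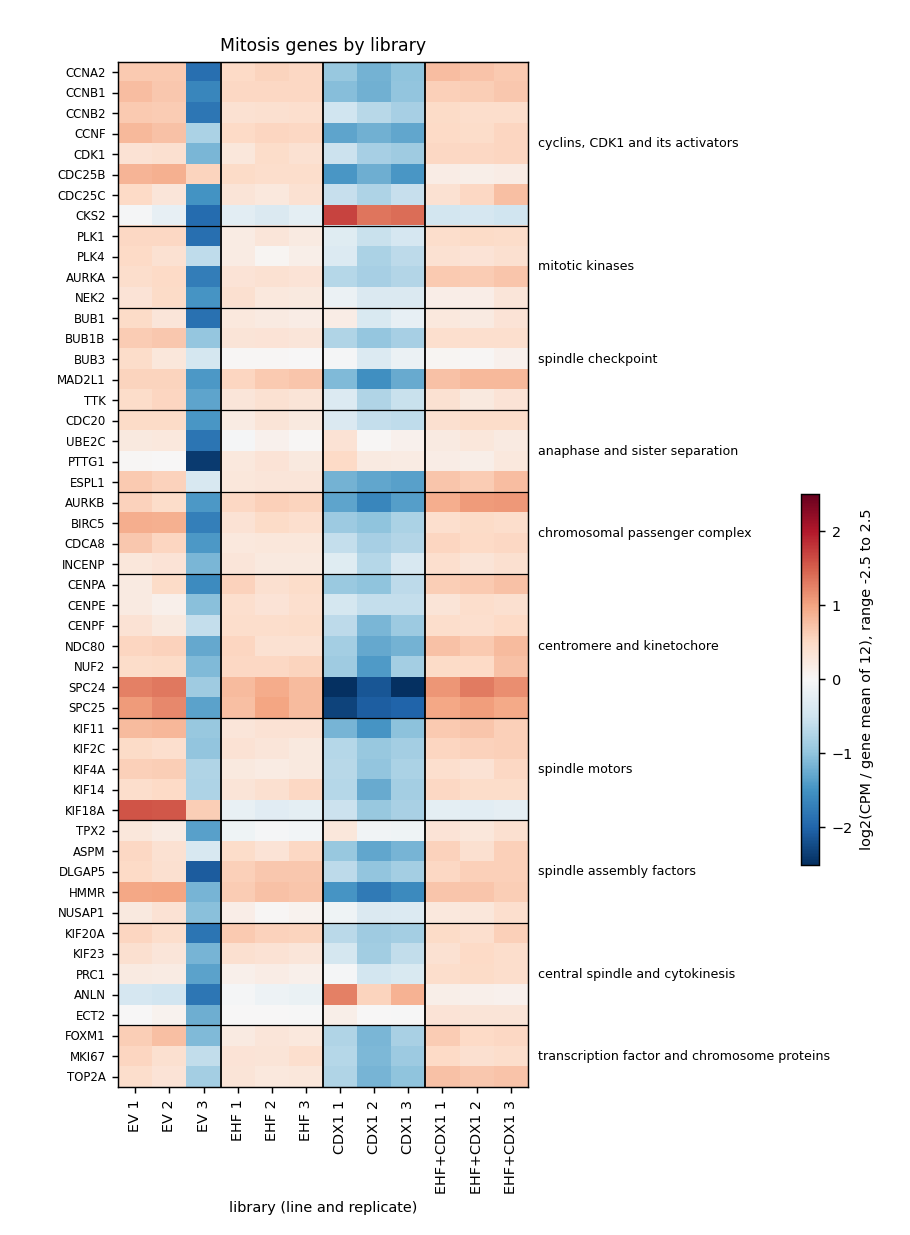
Level of each of the 50 mitosis genes (rows, by role) in the 12 libraries (columns), as log2 of CPM relative to the gene's mean over the libraries. EV replicate 3 and the 3 CDX1 libraries stand below the other 8, with CKS2 and ANLN high in CDX1 cells and KIF18A high in EV replicates 1 and 2.

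Across the 50 genes, the median of the relative log2 levels was 0.50, 0.47 and -1.24 in the 3 EV libraries, 0.32, 0.34 and 0.33 in EHF, -0.67, -0.94 and -0.81 in CDX1 and 0.46, 0.47 and 0.48 in EHF+CDX1 cells. The CDX1 mean was the lowest of the 4 lines in 44 genes and the EV mean in the other 6, while the EHF+CDX1 mean was the highest in 37. In 44 genes every CDX1 library lay below every EHF and EHF+CDX1 library, against 35.2% of all genes tested. The opposite was seen in 2 genes, CKS2 and ANLN, against 35.5% of all genes. The coefficient of variation within a line had a median over the genes of 53.7% in EV cells, 3.26% in EHF, 12% in CDX1 and 3.16% in EHF+CDX1 cells, and EV cells thus had the widest spread. Per length of transcript, on the deposited log2 RPKM scale, CKS2 had the highest mean level over the libraries (7.25) and CDC25C the lowest (1.99).

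The promoters of 7 genes are shown as examples of what the genes share in sequence and of where they differ, for the 2 genes that fell most in CDX1 cells (SPC24, SPC25), for cyclin B1 and PLK1, for KIF18A, which fell in every line, and for the 2 genes that rose in CDX1 cells (CKS2, ANLN). Each line gives the 150 bases before the transcription start, 5′ to 3′ on the strand of the gene, from RefSeq on GRCh38.p14. Capitals mark the letters of a CCAAT box (CCAAT, or ATTGG on the other strand) or of a CHR (TTTGAA, or TTCAAA on the other strand).
SPC24 (chr19:11155783-11155932, minus strand): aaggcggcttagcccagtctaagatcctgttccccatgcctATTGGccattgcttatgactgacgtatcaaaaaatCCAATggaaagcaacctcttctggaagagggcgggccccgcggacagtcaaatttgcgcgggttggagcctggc
SPC25 (chr2:168890431-168890580, minus strand): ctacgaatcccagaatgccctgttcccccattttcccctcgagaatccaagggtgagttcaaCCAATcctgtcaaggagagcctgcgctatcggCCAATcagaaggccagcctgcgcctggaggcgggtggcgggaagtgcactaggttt
CCNB1 (chr5:69167000-69167149, plus strand): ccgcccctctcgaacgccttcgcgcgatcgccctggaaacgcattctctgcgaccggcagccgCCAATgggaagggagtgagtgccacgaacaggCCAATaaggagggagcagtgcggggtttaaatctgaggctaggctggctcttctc
PLK1 (chr16:23678739-23678888, plus strand): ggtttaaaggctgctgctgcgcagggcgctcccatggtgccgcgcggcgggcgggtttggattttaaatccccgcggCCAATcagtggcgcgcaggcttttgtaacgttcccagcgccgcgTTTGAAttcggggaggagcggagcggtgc
KIF18A (chr11:28108157-28108306, minus strand): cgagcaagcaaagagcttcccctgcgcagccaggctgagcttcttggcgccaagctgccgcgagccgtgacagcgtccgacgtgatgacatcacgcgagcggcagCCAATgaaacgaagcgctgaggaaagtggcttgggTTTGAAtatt
CKS2 (chr9:89311045-89311194, plus strand): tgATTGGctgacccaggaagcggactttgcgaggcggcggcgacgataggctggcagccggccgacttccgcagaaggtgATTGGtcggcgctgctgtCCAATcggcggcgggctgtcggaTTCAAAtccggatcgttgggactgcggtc
ANLN (chr7:36389712-36389861, plus strand): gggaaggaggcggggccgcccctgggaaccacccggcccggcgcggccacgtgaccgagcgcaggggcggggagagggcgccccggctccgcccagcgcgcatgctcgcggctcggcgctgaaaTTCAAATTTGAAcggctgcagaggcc
Genes with opposite changes in CDX1 cells thus both held such letters. In the bases shown these were 2 CCAAT boxes in SPC24 and in SPC25, CHR and CCAAT letters in CKS2, and CHR letters in ANLN. SPC25 also held CHR letters at 2 places in the wider window of 300 bases described below, neither of them complete within the bases shown. SPC24 held no CHR letters in that window.

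Promoters of 300 bases, from 250 before to 50 after the start, were matched for 43 of the 50 genes. Only the most upstream annotated start of each gene was used, and only exact letters were counted. AURKA, BIRC5, BUB3, FOXM1, TPX2, TTK and UBE2C had no entry. CHR letters on either strand were in 31 of the 43 promoters (72.1%) and in 1 of 17 promoters of S phase genes. Of all 27305 promoters in the RefSeq set, 15.5% held them. That set was not limited to genes in the count table or to genes tested here. CCAAT was in 34 of 43 (79.1%), against 35.7% of all promoters, and at least 2 copies of it were in 22 (51.2%), against 11.3%. Both kinds of letters were in 26 (60.5%), against 6.13%. The 31 genes with CHR letters had a median log2 fold change of -0.94 in CDX1 against EV cells, and the 12 without had one of -0.89. The medians were also close in EHF+CDX1 against CDX1 cells, at 1.27 and 1.35. These letters are common in the group, and the part of CHR in the changes was not tested. Other starts of a gene and variants of the letters were not searched. Genes counted as without CHR letters may therefore hold the element.

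The comparison of CDX1 with EV cells asks what CDX1 does without added EHF. EHF was also lower in CDX1 cells (12.3 CPM) than in EV cells (299 CPM), and its part in the changes was not tested. Of the 50 genes, 21 fell by more than 1.5-fold and 2 rose (edgeR test against a 1.5-fold change, adjusted p-value of 0.05), against 23.3% of all genes tested that fell and 21.3% that rose. The count that fell depended on the tool and the libraries, with 8 in limma voom, 10 in DESeq2, 9 on the deposited log2 RPKM values, 11 when the 2 lines were fitted alone, 10 without EV replicate 1 or CDX1 replicate 2 and 11 without EV replicate 2 or CDX1 replicate 3. The shares of all genes called were not taken for these runs, so these counts cannot be set beside all genes. Adjusted p-values below are from the edgeR test against 1.5-fold unless they are said to be against no change. The median log2 fold change over the 50 genes was -0.87, against -0.03 over all genes tested, and 44 of the 50 values were negative. Without EV replicate 3, 39 genes fell and 2 rose, against 24.8% and 26.3% of all genes, and the median was -1.29. Against no change, 27 genes were lower and 2 higher with all libraries (35.1% and 33.8% of all genes), and 45 were lower and 3 higher without replicate 3 (38.4% and 40.6%). All 3 CDX1 libraries were below EV replicates 1 and 2 in 44 genes and above both in 3, against 40.7% and 42.7% of all genes. With replicate 3 included, the libraries of the lines did not overlap in 11 genes that were lower and 3 that were higher, against 32.8% and 33.9% of all genes. The higher fibroblast and blood and lower epithelial marker sums of CDX1 libraries, the blood sum being mainly CD68, moved with these changes. The part of these sums was not tested.

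The largest decreases were in the kinetochore. SPC24 and SPC25 form the inner end of the Ndc80 complex, which joins kinetochores to microtubules. SPC24 was at 27.0, 28.3 and 6.08 CPM in the EV libraries, 19.6, 21.6 and 19.5 in EHF, 1.53, 2.58 and 1.72 in CDX1 and 24.2, 27.8 and 25.2 in EHF+CDX1 cells. All 3 CDX1 libraries lay below every other library, EV replicate 3 included. The log2 fold change against EV cells was -3.38 (SE 0.47, edgeR adjusted p = 0.00011), a 10.4-fold decrease.

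SPC25 was at 19.2, 20.9 and 3.60 CPM in the EV libraries, 15.4, 18.2 and 15.8 in EHF, 1.84, 2.20 and 2.29 in CDX1 and 17.8, 18.9 and 17.6 in EHF+CDX1 cells. Again no other library was as low as those of CDX1 cells, and the log2 fold change against EV cells was -2.77 (SE 0.49, edgeR adjusted p = 0.000827). The other subunits of the complex, NDC80 and NUF2, which bind the microtubule, fell less, with log2 fold changes of -1.24 (SE 0.36) and -1.13 (SE 0.32). The ratio of SPC24 to NDC80 in CPM was 0.944, 0.969 and 0.752 in the EV libraries, 0.687 to 0.849 in EHF, 0.141, 0.318 and 0.201 in CDX1 and 0.746 to 0.902 in EHF+CDX1 cells. EV replicate 3 lay within the range of the EHF and EHF+CDX1 libraries in this ratio. For SPC25 to NDC80 the ratio was 0.670, 0.716 and 0.445 in the EV libraries, 0.539 to 0.716 in EHF, 0.169 to 0.271 in CDX1 and 0.519 to 0.614 in EHF+CDX1 cells, so that replicate 3 was below the EHF and EHF+CDX1 libraries and above those of CDX1 cells. The ratio of NUF2 to NDC80 stayed between 0.718 and 1.07 in all 12 libraries.

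Of the 7 centromere and kinetochore genes 5 fell in CDX1 cells with all libraries and 7 without EV replicate 3, and the median log2 fold change of this group was -1.13. Besides the Ndc80 complex, CENPF, a large protein of the outer kinetochore, had a log2 fold change of -0.94 (SE 0.20). CENPA, the histone variant that marks the centromere, was at 16.4, 19.6 and 4.76 CPM in EV and 7.38, 6.97 and 8.95 CPM in CDX1 libraries and did not pass the test with all libraries (edgeR adjusted p = 0.255). It passed without EV replicate 3, with a log2 fold change of -1.21 (edgeR adjusted p = 1.14e-05).

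Among the cyclins, CDK1 and its activators, 3 of 8 genes fell and 1 rose with all libraries, and 7 fell and 1 rose without EV replicate 3. CDC25B, the phosphatase that starts the activation of CDK1 in G2 phase, was at 354, 363 and 288 CPM in EV and 71.2, 84.4 and 72.0 CPM in CDX1 libraries. It was the gene that EV replicate 3 touched least, and its log2 fold change of -2.14 (SE 0.11, edgeR adjusted p = 6.36e-08) was close to that without replicate 3, -2.24. CCNB1, cyclin B1, was at 176, 166 and 33.3 CPM in EV and 49.5, 45.3 and 52.6 CPM in CDX1 libraries, so that replicate 3 alone was below the CDX1 cells. Its log2 fold change was -1.34 (SE 0.42, edgeR adjusted p = 0.0469) and -1.80 without replicate 3 (edgeR adjusted p = 5.66e-13). CDK1 itself was at 64.6, 66.7 and 22.8 CPM in EV and 34.7, 28.3 and 27.2 CPM in CDX1 libraries. It did not pass the test with all libraries (log2 fold change -0.77, SE 0.30, edgeR adjusted p = 0.213) and did without replicate 3 (-1.13, edgeR adjusted p = 1.96e-06).

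CKS2, a small protein that binds CDK1 and helps it to phosphorylate its targets, went the other way. It was at 94.1, 83.3 and 25.3 CPM in the EV libraries, 79.6, 74.7 and 80.7 in EHF, 311, 243 and 252 in CDX1 and 69.5, 71.7 and 67.8 in EHF+CDX1 cells. Every CDX1 library was above every other library, and the log2 fold change was 1.996 (SE 0.35, edgeR adjusted p = 0.00122), a 3.99-fold increase. The ratio of CKS2 to CDK1 in CPM was 8.57 to 9.27 in CDX1 libraries and 0.925 to 1.46 in the other 9, and in EV replicate 3 (1.11) it did not leave that range.

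None of the 4 mitotic kinase genes passed the test in CDX1 against EV cells with all libraries, and 3 fell without EV replicate 3. PLK1, which acts from mitotic entry to cytokinesis, was at 198, 197 and 37.6 CPM in EV and 112, 94.1 and 104 CPM in CDX1 libraries, with a log2 fold change of -0.48 (SE 0.42, edgeR adjusted p = 0.625) that became -0.93 without replicate 3 (edgeR adjusted p = 1.0e-05). AURKA, the kinase of the spindle poles, was at 59.7, 62.3 and 13.4 CPM in EV and 27.1, 24.9 and 26.5 CPM in CDX1 libraries. Its log2 fold change was -0.78 (SE 0.39) with and -1.22 without replicate 3. In the chromosomal passenger complex, 1 of 4 genes fell with all libraries and 4 of 4 without replicate 3. AURKB, its kinase, was at 68.0, 63.4 and 17.0 CPM in EV and 18.5, 14.8 and 17.7 CPM in CDX1 libraries, a log2 fold change of -1.54 (SE 0.37, edgeR adjusted p = 0.0122). Replicate 3 lay among the CDX1 libraries here.

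Of the 5 spindle checkpoint genes, 2 fell with all libraries and 3 without EV replicate 3. MAD2L1, which holds CDC20 inactive, was at 47.9, 48.0 and 12.1 CPM in EV and 15.3, 11.3 and 13.8 CPM in CDX1 libraries (log2 fold change -1.41, SE 0.38, edgeR adjusted p = 0.0227). BUB1B, the checkpoint protein BUBR1, was at 104, 107 and 34.1 CPM in EV and 39.5, 34.2 and 37.3 CPM in CDX1 libraries (log2 fold change -1.13, SE 0.31, edgeR adjusted p = 0.0365). Its exons overlap those of PAK6 and of a BUB1B-PAK6 readthrough gene on the same strand.

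Of the 4 anaphase genes, 1 fell with all libraries and 2 without EV replicate 3. ESPL1, separase, was at 85.8, 81.6 and 41.6 CPM in EV and 24.1, 22.3 and 21.5 CPM in CDX1 libraries, with no overlap between the lines (log2 fold change -1.62, SE 0.21, edgeR adjusted p = 0.000239). PTTG1, securin, its inhibitor, was at 46.6, 46.4 and 8.71 CPM in EV and 65.2, 53.6 and 52.7 CPM in CDX1 libraries, each above replicates 1 and 2 of EV cells. The difference did not pass the test (log2 fold change 0.77, SE 0.43, edgeR adjusted p = 0.318, and 0.30 without replicate 3). UBE2C was at 93.8, 94.3 and 22.2 CPM in EV and 101.2, 80.1 and 84.9 CPM in CDX1 libraries and CDC20 at 282, 281 and 74.5 CPM in EV and 157, 133 and 130.5 CPM in CDX1 libraries. CDC20 passed the test without replicate 3 (log2 fold change -1.01, edgeR adjusted p = 2.96e-06), and UBE2C had a value of -0.08 there. PTTG1, UBE2C and CDC20 have named pseudogene copies, which could share reads with them.

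Of the 5 spindle motors 4 fell in CDX1 cells, as did 2 of the 5 spindle assembly factors, and without EV replicate 3 these counts were 5 and 3. The largest decrease among the assembly factors was that of HMMR, which links microtubules at spindle poles and was at 62.4, 62.8 and 14.3 CPM in EV and 11.5, 9.30 and 10.5 CPM in CDX1 libraries (log2 fold change -2.15, SE 0.40, edgeR adjusted p = 0.00177). DLGAP5 was at 54.1, 50.3 and 9.06 CPM in EV and 24.4, 19.3 and 21.2 CPM in CDX1 libraries, and passed only without replicate 3 (log2 fold change -1.27, edgeR adjusted p = 6.92e-08).

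The transcription factor FOXM1 and the chromosome proteins MKI67 and TOP2A all fell, with and without EV replicate 3. FOXM1, an activator of G2 and mitosis genes, was at 148, 165 and 45.1 CPM in EV and 58.05, 44.2 and 55.9 CPM in CDX1 libraries (log2 fold change -1.18, SE 0.34, edgeR adjusted p = 0.0429). MKI67, the Ki-67 antigen used to stain dividing cells, was at 735, 665 and 330.1 CPM in EV and 308, 232 and 268 CPM in CDX1 libraries (log2 fold change -1.10, SE 0.23, edgeR adjusted p = 0.0151). TOP2A, which untangles sister chromatids, was at 135, 127 and 55.7 CPM in EV and 59.3, 44.8 and 49.6 CPM in CDX1 libraries (log2 fold change -1.05, SE 0.25, edgeR adjusted p = 0.0309).

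Among the 5 genes of the central spindle and cytokinesis, none fell with all libraries and ANLN rose. ANLN, anillin, a scaffold of the contractile ring, was at 106, 102 and 40.8 CPM in the EV libraries, 140.2, 130.5 and 128 in EHF, 341, 209.6 and 259.7 in CDX1 and 157, 156 and 153 in EHF+CDX1 cells. The CDX1 libraries were the highest and the EV libraries the lowest, and the log2 fold change between these lines was 1.71 (SE 0.29, edgeR adjusted p = 0.00145). Without replicate 3, KIF20A and KIF23, motors of the central spindle, fell in the same comparison (log2 fold changes -1.29 and -0.98). PRC1 and ECT2 had values of -0.49 and -0.01 there and did not pass.

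**Figure D2:**
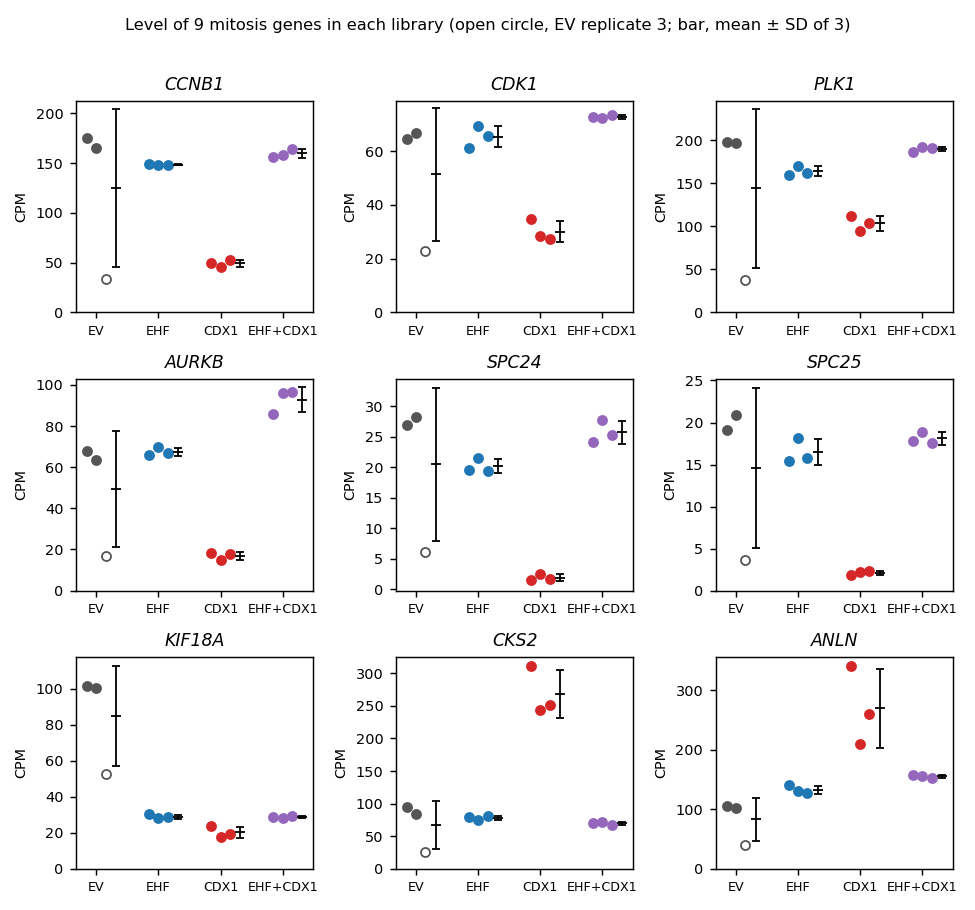
CPM (TMM-normalized) of 9 mitosis genes in each library of the 4 lines (points) with the mean ± SD of 3 (bars); the open circle is EV replicate 3. CDX1 cells are lowest in SPC24 and SPC25 and highest in CKS2 and ANLN, and KIF18A is lower in all 3 lines than in EV cells.

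The comparison of EHF+CDX1 with CDX1 cells asks what EHF adds to cells that carry CDX1, and does not use EV replicate 3 except for the shared estimate of the spread. Of the 50 genes, 27 were higher by more than 1.5-fold in EHF+CDX1 cells and 1 was lower, against 22.3% and 18.7% of all genes tested. On the deposited log2 RPKM values 16 were higher and 0 lower, and without CDX1 replicate 2 the count of higher genes was 18. That count was 37 with total counts alone and 39 when the 2 lines were fitted alone. The shares of all genes called were not taken for these runs. The median log2 fold change in edgeR with all libraries was 1.29. Every EHF+CDX1 library was above every CDX1 library in 45 genes and below in 2, against 41.1% and 39.2% of all genes. When EV replicate 3 was left out of the fit, 39 genes were higher and 2 were lower, against 25.8% and 22.3% of all genes, with nearly the same median, 1.28. Against no change, 39 were higher and 2 lower with all libraries (34.9% and 32.3% of all genes), and 46 and 2 without replicate 3 (41.6% and 39.6%). The 2 lower genes were CKS2 and ANLN.

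This comparison and the one above share the CDX1 libraries, so their values are not independent. SPC24 was 13.3-fold higher in EHF+CDX1 than in CDX1 cells (log2 fold change 3.73, SE 0.47, edgeR adjusted p = 6.1e-05) and SPC25 8.59-fold higher (3.10, SE 0.49, edgeR adjusted p = 0.000375). AURKB was at 85.9, 95.9 and 96.7 CPM in the EHF+CDX1 libraries, the 3 highest of all 12, and was 5.46-fold higher than in CDX1 cells (log2 fold change 2.45, SE 0.38, edgeR adjusted p = 0.000406). HMMR, MAD2L1 and ESPL1 had log2 fold changes of 2.28 (SE 0.40), 2.06 (SE 0.38) and 1.98 (SE 0.21).

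By role, 6 of 7 centromere and kinetochore genes, 4 of 5 spindle motors, 5 of 8 cyclins, CDK1 and its activators, 2 of 4 mitotic kinases, 2 of 5 checkpoint genes, 2 of 4 genes of the chromosomal passenger complex, 2 of 5 spindle assembly factors, 1 of 4 anaphase genes and all 3 of FOXM1, MKI67 and TOP2A were higher. No gene of the central spindle and cytokinesis group was higher with all libraries. CCNB1 was at 156, 159 and 164 CPM in EHF+CDX1 libraries (log2 fold change 1.70, SE 0.43, edgeR adjusted p = 0.0148), CDK1 at 72.6, 72.2 and 73.3 CPM (1.27, SE 0.30, edgeR adjusted p = 0.0164) and AURKA at 69.0, 68.6 and 71.1 CPM (1.41, SE 0.39, edgeR adjusted p = 0.0302). PLK1 was at 187, 192 and 191 CPM, above each CDX1 library, but passed only without EV replicate 3 (log2 fold change 0.88, edgeR adjusted p = 2.17e-05). MKI67 was at 708, 666 and 681 CPM, more than 2-fold above each CDX1 library (log2 fold change 1.35, SE 0.23, edgeR adjusted p = 0.00278). CKS2 was the gene that was lower (log2 fold change -1.95, SE 0.35, edgeR adjusted p = 0.00168).

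**Figure D3:**
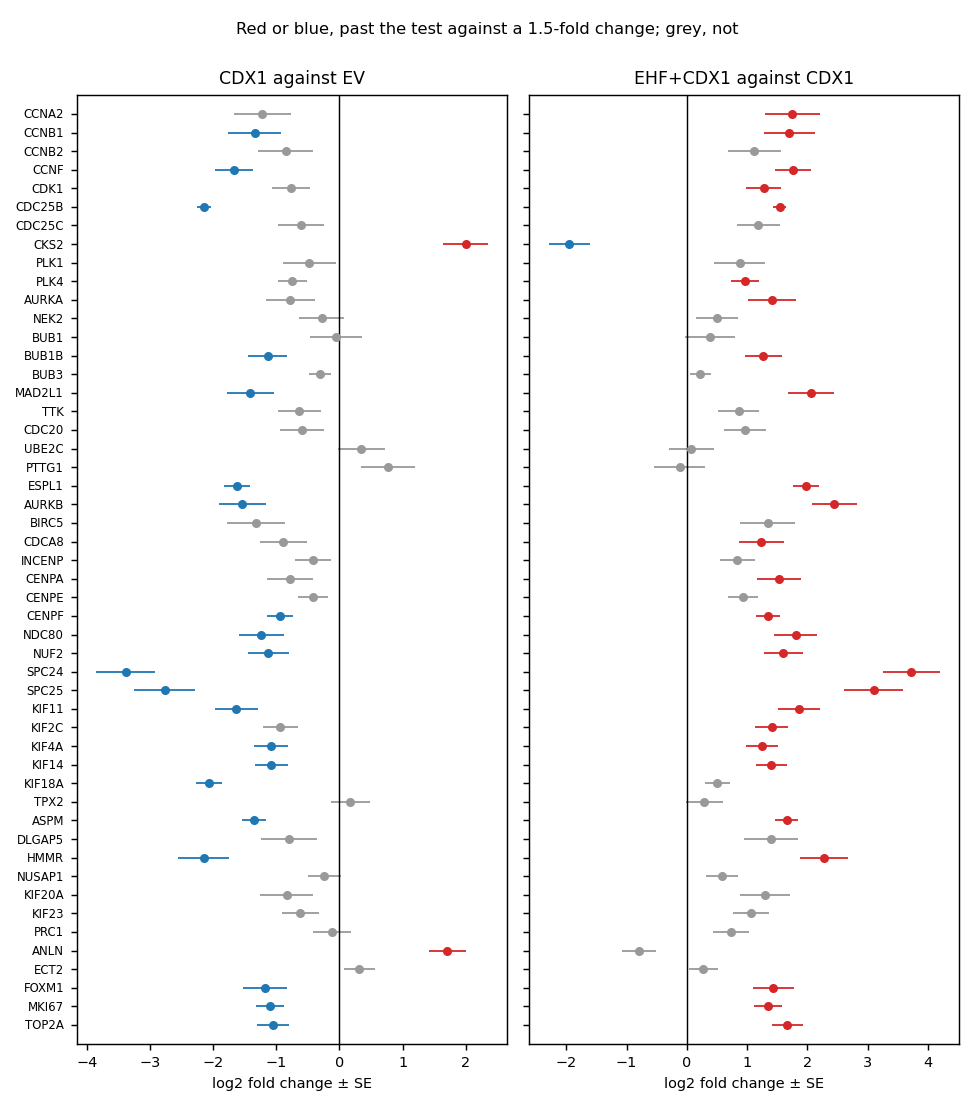
Log2 fold change ± SE of each of the 50 mitosis genes in CDX1 against EV cells (left) and in EHF+CDX1 against CDX1 cells (right), with genes past the edgeR test against a 1.5-fold change in blue (lower) or red (higher). On the left 21 genes are blue and 2 red, and on the right 27 are red and 1 is blue; the panels share the CDX1 libraries.

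In EHF+CDX1 against EV cells, the comparison for both factors together, 1 of the 50 genes fell and 0 rose by more than 1.5-fold, against 3.13% and 7.3% of all genes tested, and limma voom and DESeq2 also called 0 that rose. In edgeR against no change, 6 genes had an unadjusted p under 0.05. The share of all genes under that threshold was not taken, so the 6 cannot be set beside all genes. The same counts, 1 and 0, were found without EV replicate 3, against 4.28% and 11.2% of all genes. The median log2 fold change was 0.37 with and 0.01 without this library. Against no change, edgeR called 1 gene higher (ANLN, log2 fold change 0.91, SE 0.29) and 2 lower (KIF18A and CDC25B) with all libraries, where 16.9% and 16.7% of all genes were called, and 9 higher and 9 lower without replicate 3, where 28.1% and 26.9% were called. Every EHF+CDX1 library was above every EV library in 16 genes and below in 2, against 23.1% and 20.9% of all genes.

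The largest positive values in this comparison did not pass the test against 1.5-fold and shrank without replicate 3. AURKB had a log2 fold change of 0.91 (SE 0.36, edgeR adjusted p = 0.411), and 0.49 without replicate 3. CENPA was at 21.7, 22.3 and 23.4 CPM in EHF+CDX1 libraries, above each EV library, with a log2 fold change of 0.75 (SE 0.36, edgeR adjusted p = 0.667), and 0.32 without replicate 3. TOP2A was at 166, 160.3 and 163 CPM, also above each EV library, with 0.62 (SE 0.25, edgeR adjusted p = 0.805) and 0.31 without replicate 3. The other genes with the largest values of their role groups were MAD2L1 (0.65, SE 0.37), PTTG1 (0.65, SE 0.43), AURKA (0.63, SE 0.39) and DLGAP5 (0.60, SE 0.44), none of which passed. CDC25B was at 222, 218 and 223 CPM and had a log2 fold change of -0.60 (SE 0.10), past no change (edgeR adjusted p = 0.000933) but not past 1.5-fold.

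In EHF against EV cells, the comparison for EHF alone, 1 gene fell and 0 rose, against 2.65% and 5.68% of all genes tested, and limma voom and DESeq2 also called 0 that rose. When tested against no change, 3 genes had an unadjusted p under 0.05, and the share of all genes under that threshold was not taken. The same counts past 1.5-fold, 1 and 0, were found without replicate 3, against 3.46% and 9.51% of all genes. The median log2 fold change was 0.23 with all libraries and -0.16 without replicate 3, so its sign rested on that library. Against no change, 2 genes were lower (KIF18A and CDC25B) and 0 higher with all libraries, where 15.1% and 14.9% of all genes were called. Without replicate 3, 22 genes were lower and 4 higher, where 26.3% and 26.4% of all genes were called. MKI67, for example, was at 637, 626 and 670.4 CPM in EHF libraries, between replicate 3 and the other 2 EV libraries except for the highest EHF library, which was above replicate 2. The libraries of the lines did not overlap in 7 genes that were higher and 2 that were lower, against 22.1% and 21.5% of all genes.

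**Figure D4:**
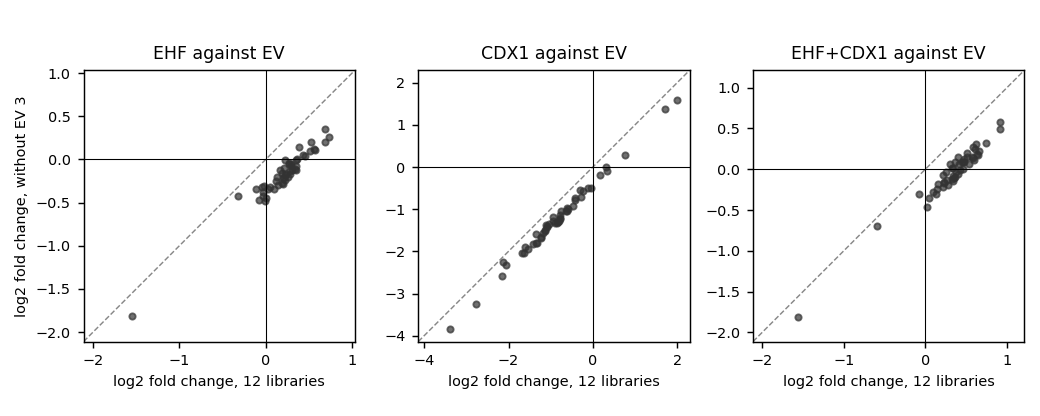
Log2 fold change of each of the 50 mitosis genes against EV cells with all 12 libraries (x axis) and without EV replicate 3 (y axis), for EHF, CDX1 and EHF+CDX1 cells; the dashed line marks equal values. The genes lie below the line in each panel, so the median moved from 0.23 to -0.16, from -0.87 to -1.29 and from 0.37 to 0.01.

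In EHF+CDX1 against EHF cells, which asks what CDX1 adds to EHF, none of the 50 genes passed the edgeR test against 1.5-fold in either direction (2.49% of all genes tested were higher and 0.189% lower), and none passed against no change (5.65% and 4.13%). DESeq2 and limma voom also called 0 against 1.5-fold. In edgeR 1 gene, CDC25B, had an unadjusted p under 0.05, and the share of all genes under that threshold was not taken. The log2 fold changes lay between -0.28 (CDC25B) and 0.46 (AURKB), with a median of 0.14. Without EV replicate 3, whose spread enters the fit, 0 genes still passed 1.5-fold in either direction (3.34% of all genes higher, 0.838% lower), while 20 genes were higher and 1 was lower against no change, where 18.1% of all genes were called in each direction. Every EHF+CDX1 library was above every EHF library in 28 genes and below in 3, against 27.4% and 28% of all genes. These are small differences between libraries with little spread. CDK1, for example, was at 61.3, 69.2 and 65.8 CPM in EHF and 72.6, 72.2 and 73.3 CPM in EHF+CDX1 libraries.

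KIF18A, a motor that dampens the movements of chromosomes on the metaphase plate, was the gene that fell in every line. It was at 102, 100.5 and 52.7 CPM in the EV libraries, 30.2, 28.0 and 28.7 in EHF, 23.7, 17.8 and 19.4 in CDX1 and 29.0, 28.4 and 29.2 in EHF+CDX1 cells. The EV libraries, replicate 3 included, were all higher than any library of another line. The log2 fold change against EV cells was -1.55 in EHF (SE 0.21, edgeR adjusted p = 0.00184), -2.06 in CDX1 (SE 0.21, edgeR adjusted p = 2.05e-05) and -1.56 in EHF+CDX1 cells (SE 0.21, edgeR adjusted p = 0.00147). Between EHF+CDX1 and CDX1 cells it did not pass the test (log2 fold change 0.51, SE 0.21, edgeR adjusted p = 0.594), where 27 other genes were higher.

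KIF18A lies on chromosome 11 from 28020619 to 28108156 (GRCh38.p14), and 6 other tested genes lie within 1 Mb of it. Of these, BDNF, a secreted growth factor of neurons, was also lower in all 3 lines, with log2 fold changes of -2.80, -2.86 and -2.92 in EHF, CDX1 and EHF+CDX1 cells, each past the edgeR test against 1.5-fold. METTL15, whose annotated start at 28108388 is the next beyond that of KIF18A, had log2 fold changes of -0.60, -0.64 and -0.77, each past no change but not past 1.5-fold. The other 4 neighbours did not pass the test against 1.5-fold in EHF or EHF+CDX1 cells. In CDX1 cells all 4 passed, CCDC34 (-2.34), LGR4 (-1.23) and BDNF-AS (-2.01) being lower and LIN7C (0.91) higher. BDNF-AS overlaps BDNF, and without the strand setting their reads cannot be told apart. The 3 comparisons share the EV libraries.

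The interaction asks whether the effect of EHF differs with CDX1, and is the log2 fold change of EHF+CDX1 over CDX1 cells minus that of EHF over EV cells. It was higher in 13 of the 50 genes and lower in 2, against 20.2% and 18% of all genes tested, with a median of 1.03. The 13 became 7 with limma voom, 6 on the deposited log2 RPKM values and 22 with total counts alone. The shares of all genes called were not taken for these runs. Without EV replicate 3 the interaction was higher in 40 genes and lower in 2, against 23.3% and 24.4% of all genes, and all 13 were among the 40. Against no change, 22 genes were higher and 2 lower with all libraries (30.2% and 28.3% of all genes), and 47 and 3 without replicate 3 (36% and 37.6%). The highest values were those of SPC24 (3.73, SE 0.62, edgeR adjusted p = 0.000604), SPC25 (2.90, SE 0.65, edgeR adjusted p = 0.00514) and HMMR (2.14, SE 0.55, edgeR adjusted p = 0.0146). The lowest were those of CKS2 (-2.16, SE 0.48, edgeR adjusted p = 0.00662), ANLN (-1.48, SE 0.40, edgeR adjusted p = 0.0273) and PTTG1 (-0.85, SE 0.60, edgeR adjusted p = 0.405), the last of which did not pass. In the 13 genes the log2 fold change lay between -1.55 and 0.45 for EHF against EV cells and between 0.51 and 3.73 for EHF+CDX1 against CDX1 cells. CDX1 itself was at a higher level in EHF+CDX1 than in CDX1 cells, so the difference between those lines is not that of EHF alone. EHF also started from a lower level in CDX1 cells (12.3 CPM) than in EV cells (299 CPM), and the part of this was not tested.

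Other genes of the cell cycle were read from lists of the same pathway. The shares of all genes tested to set beside them are the 23.3% that fell and 21.3% that rose in CDX1 against EV cells, and the 22.3% higher and 18.7% lower in EHF+CDX1 against CDX1 cells. Of 43 further G2 and mitosis genes, 22 fell and 0 rose in CDX1 against EV cells (median log2 fold change -1.07), and 26 were higher and 0 lower in EHF+CDX1 than in CDX1 cells (median 1.43). Of 20 S phase genes, 18 fell and 0 rose (median -1.96) and 18 were higher and 0 lower (median 2.19) in the same comparisons. Without EV replicate 3, 33 of the 43 and 18 of the 20 fell in CDX1 against EV cells, where 24.8% of all genes fell. In EHF+CDX1 against EV cells neither list had a member past 1.5-fold with all libraries. Of the 43 and the 20, 3 and 1 were lower without replicate 3, where 4.28% of all genes were lower. Of the 17 subunits and partners of the anaphase-promoting complex, 2 fell (ANAPC4 and ANAPC15) and 1 rose (CDC26) in CDX1 against EV cells (median -0.15). Without replicate 3, 5 of them fell and 2 rose, against 24.8% and 26.3% of all genes.

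The condensin and cohesin genes, which compact chromosomes and hold sister chromatids together numbered 19. Of these, 7 fell and 4 rose in CDX1 against EV cells (median -0.92), and 10 fell and 4 rose without EV replicate 3, against 24.8% and 26.3% of all genes. With all libraries the share that rose was close to that of all genes. Those that fell were mainly condensin subunits such as SMC2 (log2 fold change -1.81, SE 0.21), and those that rose were STAG2 (1.51, SE 0.15), WAPL (1.04, SE 0.11), PDS5A (0.85, SE 0.12) and PDS5B (1.33, SE 0.17), a cohesin subunit and regulators of how cohesin binds chromatin. In EHF+CDX1 against CDX1 cells 10 of the 19 were higher and 2 lower.

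The list named brakes on CDK activity held WEE1, PKMYT1, CDKN1A, CDKN1B, CDKN1C, CDKN2B, CDKN2C, CDKN2D, GADD45A, CCNG1, CCNG2, BTG1 and BTG2. Some of them, such as BTG1 and BTG2, do not act on CDKs themselves. Of these 13 genes, 8 rose and 1 fell in CDX1 against EV cells, with and without EV replicate 3. Of all genes, 21.3% rose and 23.3% fell with all libraries, and 26.3% rose and 24.8% fell without replicate 3. The median log2 fold change of the list was 1.09 with all libraries. In EHF+CDX1 against CDX1 cells 7 of the 13 were lower and 1 higher (median -0.84). CDKN1A, the CDK inhibitor p21, was at 150.1, 154 and 227 CPM in the EV libraries, 494, 508 and 491 in EHF, 594, 611 and 644 in CDX1 and 331, 333 and 365 in EHF+CDX1 cells. The libraries of the 4 lines did not overlap, and CDKN1A rose against EV cells in all 3 lines, with log2 fold changes of 1.49 (SE 0.14, edgeR adjusted p = 0.000189), 1.80 (SE 0.14, edgeR adjusted p = 4.05e-06) and 0.95 (SE 0.14, edgeR adjusted p = 0.0286).

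PKMYT1, a kinase that keeps CDK1 inactive, was the gene of that list that fell. It was at 86.7, 90.3 and 58.8 CPM in the EV libraries, 76.9, 76.8 and 75.0 in EHF, 8.17, 10.2 and 9.26 in CDX1 and 109.9, 101.03 and 104 in EHF+CDX1 cells. Its log2 fold change was -3.09 in CDX1 against EV cells (SE 0.16, edgeR adjusted p = 3.46e-08) and 3.51 in EHF+CDX1 against CDX1 cells (SE 0.16, edgeR adjusted p = 2.84e-08). WEE1, the other inhibitory kinase of CDK1, was at 49.7, 42.5 and 25.4 CPM in EV and 72.3, 42.3 and 48.6 CPM in CDX1 libraries and did not pass the test (log2 fold change 0.48, SE 0.23, edgeR adjusted p = 0.605).

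Of the 14 DREAM and B-MYB regulators, 5 fell and 2 rose in CDX1 against EV cells, with and without EV replicate 3 (median log2 fold change 0.09 with all libraries). Of all genes, 23.3% fell and 21.3% rose with all libraries, and 24.8% fell and 26.3% rose without replicate 3. MYBL2, which is B-MYB, was at 86.1, 81.7 and 34.4 CPM in the EV libraries, 119, 129 and 125 in EHF, 25.2, 21.9 and 23.1 in CDX1 and 176, 166 and 180.4 in EHF+CDX1 cells. The libraries of the 4 lines did not overlap, and MYBL2 was the only gene of the list past 1.5-fold in EHF+CDX1 against EV cells (log2 fold change 1.37, SE 0.25, edgeR adjusted p = 0.0141, and 1.05 without replicate 3). It fell in CDX1 against EV cells (-1.52, SE 0.26, edgeR adjusted p = 0.00164) and was higher in EHF+CDX1 than in CDX1 cells (2.89, SE 0.27, edgeR adjusted p = 6.34e-06). RBL1 and RBL2, the p107 and p130 pocket proteins of DREAM, were also among the 5 genes that fell (-2.44, SE 0.16, and -2.07, SE 0.14).

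**Figure D5:**
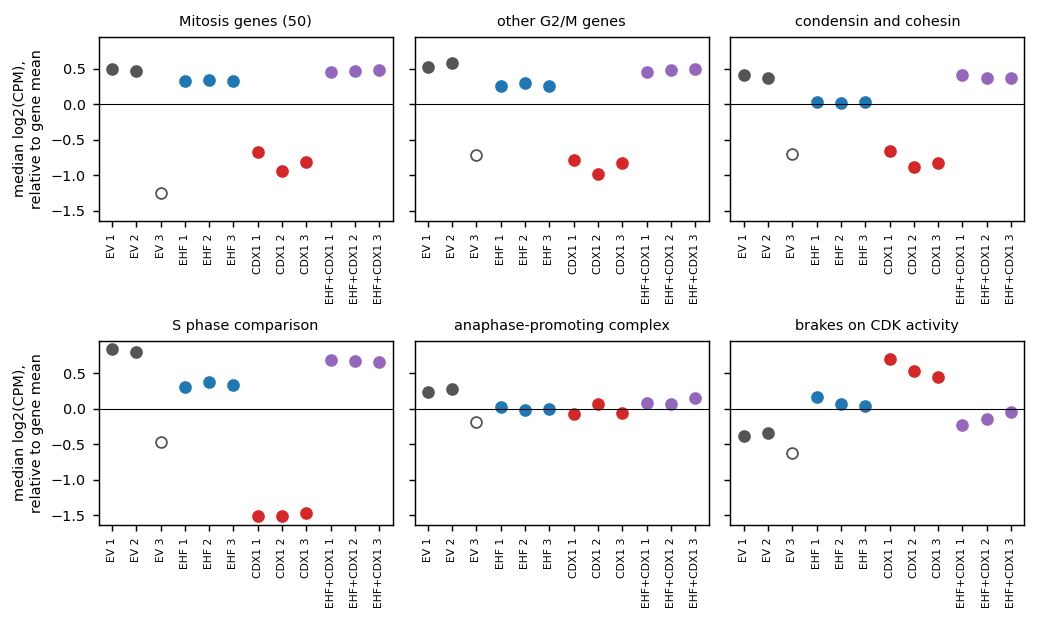
Median over the genes of a list of log2 CPM relative to each gene's mean over the 12 libraries, for each library of the 4 lines (open circle, EV replicate 3). CDX1 cells stand lowest in S phase genes and highest in the list of brakes on CDK activity, while replicate 3 is the lowest library in the mitosis genes at -1.24.

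The lists also set the low EV replicate 3 beside the low CDX1 libraries. In the mitosis genes the median relative log2 level was -1.24 in replicate 3 and -0.67 to -0.94 in CDX1 libraries, and in the S phase genes it was -0.47 and -1.47 to -1.52. In the list of brakes on CDK activity, it was -0.63 in replicate 3, below the -0.38 and -0.35 of EV replicates 1 and 2, and 0.44 to 0.70 in CDX1 libraries. The group of libraries that is lowest thus differed between the lists.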

How the data were processed

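RNA-seq libraries of 4 stable HCT116 lines, 3 per line, were read as groups given by the sample titles. The authors aligned reads to GRCh38/hg38 with Subread 2.0.0, kept uniquely mapped reads and counted those on RefSeq exons with featureCounts 2.0.0 (versions per the submitters' processing notes). The strand setting is not given in the sources used here. The authors deposited raw counts per gene, without normalization, for 28395 genes (550 without a symbol). They also deposited log2 RPKM values for 15853 genes, made with limma voom, quantile normalization and exon lengths.

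For this report, edgeR 4.0.16 under R 4.3.3 was run on the counts. Genes at 0.5 CPM or more in at least 3 libraries were kept (15853 genes; 0.0585% of counts left out), with TMM factors of 0.799 to 0.845 in CDX1 and 0.973 to 1.09 in the other lines. All 12 libraries entered 1 quasi-likelihood fit with a mean per line. A gene was called where glmTreat put it past a change of 1.5-fold, at 0.05 after Benjamini-Hochberg adjustment over all genes tested. Log2 fold changes and p-values against no change are from the F test of that fit, and the SE was taken from the log2 fold change and the square root of F. The method was tested on simulated counts whose spread was estimated without EV replicate 3. That test does not cover the spread that this library adds to the fit. Total counts of 13523007 to 74186741 put 3 counts at 0.0375 to 0.207 CPM, which covers counting error only.

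The members and lists were chosen with earlier results of these data known. Genes given with values were CCNB1, CDK1, PLK1, AURKA, AURKB, BUB1B, CDC20, UBE2C, TOP2A, MKI67, FOXM1, the largest change of each role group in EHF+CDX1 and in CDX1 against EV cells, members called in EHF, EHF+CDX1 against EV or EHF+CDX1 against EHF cells, the 3 highest and 3 lowest interactions, the highest and lowest level per length, WEE1, PKMYT1, CDKN1A, MYBL2 and the genes of the other lists called in EHF+CDX1 against EV cells. Other genes named, the neighbours of KIF18A and the ratios between genes were chosen after their values were seen. Alternatives were DESeq2 1.42.0, limma 3.58.1 (voom, quantile-normalized, with treat), RLE factors, total counts, no filter, the test against no change, a replicate block, each library left out, the deposited log2 RPKM values and the 2 lines compared alone. Exons of 12 members overlap another protein-coding gene (ANLN, BUB1B, CCNA2, CDC25C, CENPA, FOXM1, KIF20A, KIF4A, NUSAP1, PLK1, PRC1 and SPC24) and 12 have named pseudogene copies (AURKA, AURKB, BUB1, BUB3, CCNB2, CDC20, DLGAP5, MAD2L1, MKI67, NEK2, PTTG1 and UBE2C), so their counts are less certain. Promoters came from RefSeq (GRCh38.p14), at the most upstream annotated start of each gene. Other assays of the series were not analysed here.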

Additional observations from a re-analysis of the deposited data

Results flagged for a closer look

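The effect of EHF differed with the CDX1 background in 15 of the 50 mitosis genes, by a test of the difference itself (the interaction term in edgeR, against a 1.5-fold difference). It was higher in 13 genes and lower in 2, where 20.2% of all genes tested were higher and 18% lower, so the share that was higher was near that of all genes and the share that was lower was below it. The interaction was 3.73 for SPC24, 2.90 for SPC25, 2.14 for HMMR, 2.06 for KIF18A, 2.03 for ESPL1 and 1.995 for AURKB on the log2 scale. It was 1.95 for KIF11, 1.87 for CDC25B, 1.65 for CCNF, 1.46 for TOP2A, 1.43 for ASPM, 1.28 for KIF4A and 1.19 for MKI67. The lower values were -1.48 for ANLN and -2.16 for CKS2. For KIF18A the value joins a log2 fold change of -1.55 in EHF against EV cells to 0.51 in EHF+CDX1 against CDX1 cells. EV replicate 3, in which the 50 genes were low, enters the term for EHF alone, and the 13 genes were also called without it. CDX1 was at 525 CPM in CDX1 and 5419 CPM in EHF+CDX1 cells, and EHF at 299 CPM in EV and 12.3 CPM in CDX1 cells. The part of these differences was not tested.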

How the results depend on the processing

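In CDX1 against EV cells, the 21 genes that fell became 8 with limma voom and quantile normalization, 10 with DESeq2, 9 on the deposited log2 RPKM values and 11 with the 2 lines alone. Leaving out libraries gave 10 (EV replicate 1 or CDX1 replicate 2) to 39 (EV replicate 3), with 11 without EV replicate 2 or CDX1 replicate 3, while the 2 genes that rose stayed 2 in each alternative run. In EHF+CDX1 against CDX1 cells, the 27 higher genes became 16 on the log2 RPKM values, 37 with total counts and 39 with the 2 lines alone. With libraries left out they became 18 (without CDX1 replicate 2) to 39 (without EV replicate 3). The median log2 fold change of 1.29 became 1.65 with total counts. The 1 lower gene became 0 on the log2 RPKM values, 2 against no change, 2 with the 2 lines alone and 1 to 2 with libraries left out. The 13 higher interactions became 7 with limma voom, 6 on the log2 RPKM values, 22 with total counts, 22 against no change and 11 to 40 with libraries left out, 40 being without EV replicate 3. The 2 lower interactions became 1 with limma voom, DESeq2 and total counts, 0 on the log2 RPKM values and 1 to 2 with libraries left out (1 without EHF replicate 1, CDX1 replicate 1 or any EHF+CDX1 library). Against no change, 2 genes fell in EHF and 1 rose and 2 fell in EHF+CDX1 against EV cells. The median of EHF against EV cells ranged from -0.16 (without EV replicate 3) to 0.48. The causes were not tested, and the share of all genes called was taken only for edgeR, with all libraries and without EV replicate 3. Of the values of named genes, 2711 stayed on the same side of the threshold, 118 fell below it and 46 passed it. Of those called in the main or the alternative run, 0 reversed. Changes of sign in values called in neither run were not counted. In EHF against EV cells, CCNB1 went from 0.25 to -0.20 without EV replicate 3, for example. Libraries with the same replicate number in the labels did not deviate together (18 correlations from -0.07 to 0.08), so the numbers do not pair them. With a replicate block, 16 genes fell in CDX1 against EV cells, 26 were higher in EHF+CDX1 than in CDX1 cells and 12 interactions were higher. Each member had counts in every library, so none was at the limit that a count of 0 allows.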
